A study of Mus musculus with 21 samples.

Results

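The clustered histone genes were described in spleen T cells, sorted as CD4+ or CD8+, of mice raised in an enriched environment (EE) or in a standard environment (SE). All genes of the expression table whose symbol begins with Hist1h, Hist2h, Hist3h or Hist4h were taken, which gave 33 of the 12994 genes listed. The symbol alone decided which genes were taken. The 33 genes were grouped by the histone type that the symbol gives, with 3 genes for H1, 12 for H2A, 7 for H2B, 3 for H3 and 8 for H4. In the GENCODE M21 annotation of GRCm38, 70 genes carry such a symbol (6 for H1, 20 for H2A, 19 for H2B, 12 for H3 and 13 for H4), so that 37 of them were not listed in the table. Of the 33 genes, 25 lie on chromosome 13, 6 on chromosome 3, and 1 each on chromosomes 6 and 11.

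All mice were female C57BL6/J animals without a transgene or a drug. From 4 weeks of age, and for 4 weeks, EE mice lived in groups of 12 to 15 in 9120 cm2 cages with nests, running wheels, tunnels and toys that were renewed, and SE mice lived in groups of 5 to 6 in 666 cm2 cages without objects. The groups were CD4+ T cells of EE mice (n = 6), CD4+ T cells of SE mice (n = 5), CD8+ T cells of EE mice (n = 6) and CD8+ T cells of SE mice (n = 4). Samples came from 12 mice, 9 of which gave both cell populations. Per the labels, the analysed animals of an environment shared a cage, so the effects of the cage and of the environment cannot be told apart. A running number in the labels, which may be a library number, also separates EE from SE samples and cannot be told apart from the environment either. The number of replicate 6 of the SE CD8+ group lies far from those of all other samples.

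Histones are the proteins around which DNA is wound. H2A, H2B, H3 and H4 form the core of the nucleosome, and H1 binds the DNA that links nucleosomes. The genes studied here stand in clusters, have mostly no introns and are transcribed while a cell copies its DNA. Their mRNAs typically end in a short stem-loop, bound by the stem-loop binding protein SLBP, in place of a poly(A) tail, and they are quickly degraded when replication stops. Some clustered genes also give polyadenylated mRNAs in cells that do not divide. Most spleen T cells of a healthy mouse are resting.

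The stem-loop is shown here because it sets these mRNAs apart and because its stem differs between the H4 genes and the other types. Each line gives 24 bases of the transcript strand, written as DNA, 5′ to 3′, with GRCm38 coordinates. Capitals mark the 16-base match to the pattern searched, which reads GG, any 2 bases, CTT, any base, T, any base, AG, any 2 bases and CC. It was searched on the transcript strand only.
Hist1h2ap (H2A, chr13:21833026-21833049, minus strand): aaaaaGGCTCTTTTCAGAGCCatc
Hist1h2ao (H2A, chr13:21810893-21810916, plus strand): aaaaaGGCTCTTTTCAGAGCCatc
Hist1h2ae (H2A, chr13:23570665-23570688, minus strand): acaaaGGCTCTTTTCAGAGCCatt
Hist2h2aa2 (H2A, chr3:96239781-96239804, minus strand): aaaaaGGCTCTTTTCAGAGCCacc
Hist1h2be (H2B, chr13:23585528-23585551, minus strand): ccaaaGGCTCTTTTCAGAGCCacc
Hist1h1c (H1, chr13:23739507-23739530, plus strand): caaaaGGCTCTTTTCAGAGCCacc
Hist1h3e (H3, chr13:23561900-23561923, minus strand): aaaacGGCTCTTTTAAGAGCCacc
Hist1h4d (H4, chr13:23581945-23581968, plus strand): ccaaaGGCCCTTTTCAGGGCCact
Hist1h4m (H4, chr13:21812124-21812147, plus strand): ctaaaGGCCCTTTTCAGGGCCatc

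The pattern was found in transcripts of 24 of the 33 genes, and in 0.355% of all 58797 protein-coding transcripts of the annotation. Counted by gene, 136 protein-coding genes held it, of which 46 were clustered histone genes, so the pattern alone also matches other genes. In the 8 H4 genes the stem read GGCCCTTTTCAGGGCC in 6 and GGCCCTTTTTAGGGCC in 2. In the H1, H2A and H2B genes with a match it read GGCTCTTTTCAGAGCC in 3, 7 and 3 genes. Hist2h2ac, an H2A gene, carried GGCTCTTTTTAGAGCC, and 2 H3 genes carried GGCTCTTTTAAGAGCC. Among the 24 listed genes with a stem-loop, 15 (62.5%) had an annotated transcript that ran on for more than 100 bases beyond it. Of the 22 stem-loop genes that were not listed, 8 (36.4%) did so. The other 9 listed genes had no match in an annotated transcript. Hist1h2aj and Hist1h2al are annotated as pseudogenes. No test was run on the annotation.

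Several of these genes are near copies, and this bears on how their molecules can be assigned. The transcripts of Hist1h2ap and Hist1h2ao were identical over all 452 aligned bases and shared 403 of the 433 and 431 stretches of 50 bases that each holds. A read of 50 bases from a shared stretch cannot be placed on one gene rather than the other, and the values of Hist1h2ap and Hist1h2ao were not read as separate measurements. Hist1h2ae shared 197 such stretches with each of them. The transcript of Hist2h2aa2 was contained whole in that of Hist2h2aa1, which was not listed. Hist1h4m and Hist1h4n differed at 1 of 402 aligned bases. The study's methods name a counting tool run with default parameters, and do not spell out how reads that match several places were counted.

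The promoters of Hist1h2ao and Hist1h2ap are shown because these genes are the ones that passed the test between cell populations below. Both sequences are from RefSeq (GRCm38.p6), cover 300 bases around the annotated start and are written 5′ to 3′ on the gene's strand. Capitals mark CCAAT, a box common in histone promoters, on either strand (ATTGG on the other strand).
Hist1h2ao (chr13:21810117-21810416, plus strand): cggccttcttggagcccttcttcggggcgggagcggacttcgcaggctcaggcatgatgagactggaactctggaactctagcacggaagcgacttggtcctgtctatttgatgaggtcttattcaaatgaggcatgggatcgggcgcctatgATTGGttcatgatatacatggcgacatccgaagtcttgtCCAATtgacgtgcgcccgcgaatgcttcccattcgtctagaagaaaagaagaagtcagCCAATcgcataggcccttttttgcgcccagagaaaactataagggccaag
Hist1h2ap (chr13:21833426-21833725, minus strand): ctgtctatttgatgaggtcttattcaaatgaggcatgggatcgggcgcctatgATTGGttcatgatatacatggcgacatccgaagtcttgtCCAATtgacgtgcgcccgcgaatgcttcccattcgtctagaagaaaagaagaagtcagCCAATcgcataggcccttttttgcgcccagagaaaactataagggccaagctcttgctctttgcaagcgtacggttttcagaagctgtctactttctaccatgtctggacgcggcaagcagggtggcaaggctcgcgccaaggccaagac
The windows shared an unbroken run of 200 bases, with 3 CCAAT boxes in each. This run starts at the first base of the Hist1h2ap window and ends at the last base of the Hist1h2ao window. The windows are thus offset, the offset sets the length of the run, and the bases outside it were not compared. The Hist1h2ao window ends before the GENCODE start of its transcript (21810465). Promoters were found for 27 of the 33 genes, 1 of which had 2. CCAAT was present on either strand in 23 of these 28 promoters (82.1%) and in 37.4% of all 32851 promoters of the same length. TATAAA, the core of the TATA box, was present on either strand in 12 of the 28 (42.9%) and in 13.6% of all promoters. A match is a description of the letters only.

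The values are counts of molecules, each counted once by its molecular tag, after division by a factor that brings samples to a common depth. They are not divided by length. Each sample held 145546 to 221454 molecules before this division, of which 48 to 216 came from clustered histone genes (0.0236% to 0.119% of the sample, median 0.0445%). Cd3 genes were present in all samples. Cd4 was at 45 to 80 molecules in CD4+ samples and at 0 or 1 in CD8+ samples, and Cd8a with Cd8b1 summed to 1 to 10 in CD4+ and 290 to 410 in CD8+ samples. The 7 B-cell markers together gave 13 to 277 molecules in CD4+ samples and 1 to 57 in CD8+ samples, with replicate 1 of the SE CD4+ group (13) far below the other CD4+ samples. Of the erythroid list, Alas2 was the only gene in the table, at 0 to 6 molecules, NK-cell markers summed to 0 to 3, and myeloid markers overlapped between all groups.

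Over all samples, 1812 histone molecules were counted. H2A genes gave 941 of them (51.9%), H4 genes 367 (20.3%), H1 genes 308 (17.0%), H2B genes 176 (9.71%) and H3 genes 20 (1.10%). The 5 genes with the highest mean gave 62.6%. These shares cover listed genes only, which were 12 of the 20 annotated for H2A and 3 of the 12 for H3. How well mRNAs without a poly(A) tail were captured was not tested. The shares are therefore not read as the make-up of all histone mRNA in these cells. A mean above 2, the minimum for the tests, was reached by 10 genes, namely Hist2h2aa2, Hist1h2ap, Hist1h1c, Hist1h4d, Hist1h2ao, Hist1h1e, Hist1h2ae, Hist1h2bc, Hist1h2be and Hist1h4m. The lowest of these, Hist1h4m, had a mean of 2.17, and Hist1h4i stood just below the limit at 1.86. The other 23 genes were below this limit, 17 of them with a mean below 1. Those with the most molecules over all samples were the H4 genes Hist1h4i (40), Hist1h4h (35) and Hist1h4c (33), detected in 17, 13 and 17 of 21 samples. Of the other H2A genes, Hist2h2ac had 26 molecules in all, and Hist2h2be, an H2B gene, had 25. Hist1h1d, the remaining H1 gene, had 13, found in 5 samples. The H3 genes Hist1h3e, Hist1h3f and Hist2h3b had 8, 8 and 4. In 14 genes no sample held more than 3 molecules, and 5 genes were detected in every sample. A count of 0 allows up to 3 molecules at the same depth, for counting error only.

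By histone type, the CD4+ samples of EE mice had more H2A molecules than those of SE mice, with no overlap. In EE CD4+ samples the H2A sums, in normalised molecules, were 64.2, 51.5, 57.7, 47.9, 73.1 and 141 for replicates 1 to 6. In SE CD4+ samples they were 40.2, 30.2, 42.1, 40.8 and 40.5 for replicates 1, 3, 4, 5 and 6. All EE samples lay above all SE samples, and replicate 6 of the EE group stood far above the rest. The means were 72.6 ± 34.8 (SD, n = 6) and 38.8 ± 4.84 (SD, n = 5), and without EE replicate 6 the EE mean was 58.9 ± 10.1 (SD, n = 5), still with no overlap. In CD8+ samples the H2A sums were 61.4, 26.1, 29.1, 19.4, 25.3 and 24.0 in EE mice, and 12.8, 35.4, 30.0 and 23.1 in SE mice (replicates 1, 2, 3 and 6). There the groups overlapped, and the highest value was that of EE replicate 1. No test was run on these sums, since the clustered histone genes were singled out with earlier results of these data known. How often other genes separate in this way was not counted, so nothing is read from the lack of overlap. Hist1h2ae, which is part of the sum, had CD4+ means of 10.3 in EE and 1.57 in SE mice. B-cell markers overlapped between EE and SE CD4+ samples (98 to 211 and 13 to 277 molecules).

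The other types overlapped between EE and SE in both populations. H4 sums were 15.0 to 30.2 in EE and 11.3 to 22.5 in SE CD4+ samples, and 10.3 to 17.2 and 11.5 to 21.4 in CD8+ samples. H1 sums were 7.56 to 28.9 in EE and 2.85 to 19.2 in SE CD4+ samples, and 6.87 to 19.7 and 7.71 to 20.3 in CD8+ samples. H2B sums were 5.04 to 23.5 in EE and 3.66 to 15.4 in SE CD4+ samples, and 2.37 to 11.6 and 2.57 to 7.07 in CD8+ samples. The listed H3 genes were nearly undetected, with at most 4 molecules in a sample. When Hist1h2ao and Hist1h2ap were left out, the H2A sums of CD4+ samples were 27.9 to 49.8 in EE and 21.0 to 29.4 in SE, and the groups then overlapped at their edge.

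**Figure D1:**
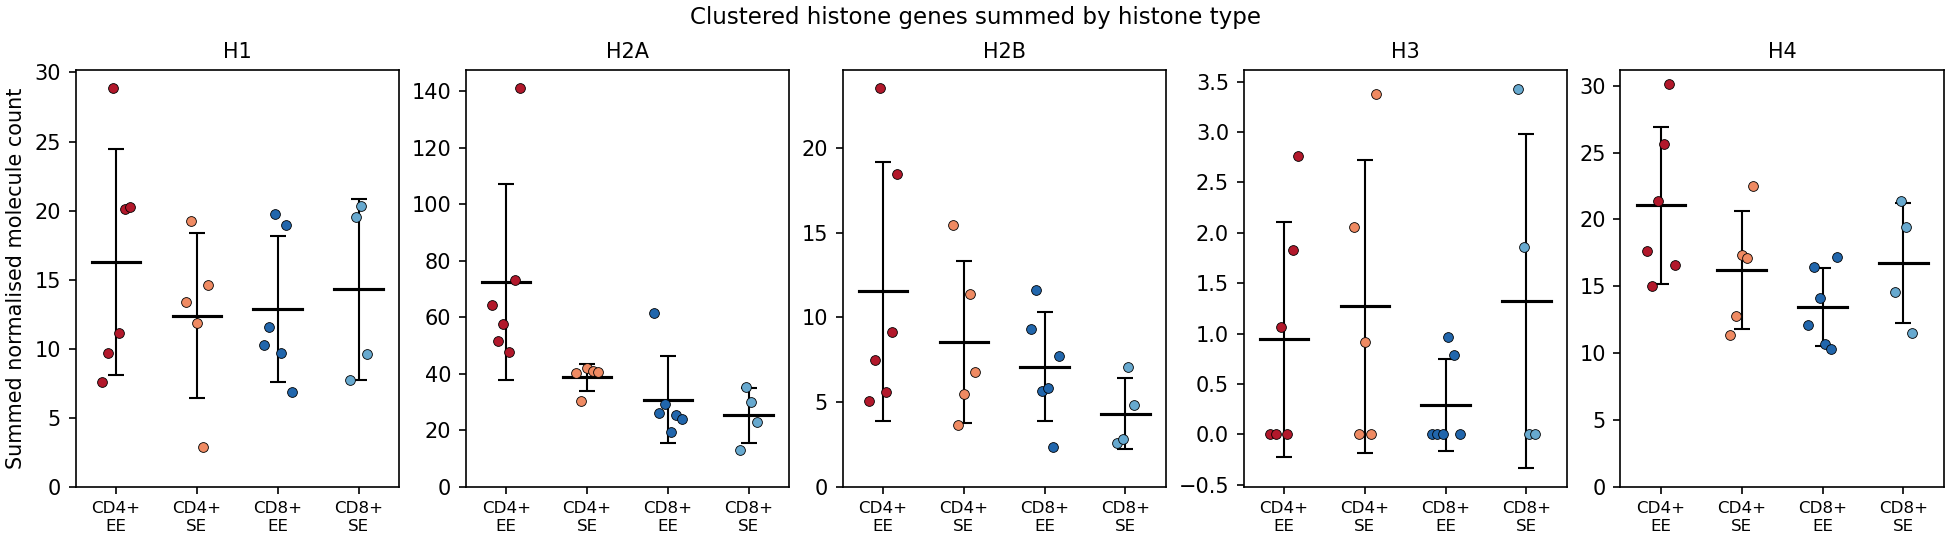
Summed normalised molecule counts of the clustered histone genes of each histone type, 1 point for each sample, with the mean (line) and SD (bar) of CD4+ and CD8+ T cells from EE and SE mice. H2A was the only type whose EE and SE samples did not overlap in CD4+ T cells (47.9 to 141 against 30.2 to 42.1). How often other genes separate in this way was not counted.

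The first comparison was between CD4+ and CD8+ T cells over both environments. Hist1h2ao and Hist1h2ap, both encoding H2A, were higher in CD4+ T cells, and no histone gene passed the test as lower. Of the 10 genes tested, 2 passed an adjusted p of 0.05 and both were higher in CD4+ T cells (limma, Benjamini-Hochberg over 7938 genes). Over all genes tested, 4.4% passed in either direction and 2.33% were higher in CD4+ T cells. As these genes share nearly all of their sequence, both calls were read as 1 measurement. With no minimum mean the fitted value was above 0 in 22 of 33 genes, with a median log2 fold change of 0.21. Over the 10 genes tested the median was 0.49 (0.86 in EE mice alone) and over all genes tested -0.01, but nothing is read from the median over 10, since Hist1h2ae and Hist1h2bc entered the test through their CD4+ samples and Hist1h2ao and Hist1h2ap both count in it.

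Hist1h2ap gave 21.4, 13.9, 9.62, 10.0, 21.0 and 62.7 normalised molecules in EE CD4+ samples, and 8.2, 2.75, 13.7, 4.75 and 7.88 in SE CD4+ samples. In CD8+ samples it gave 14.9, 0.966, 3.76, 5.83, 8.70 and 5.15 in EE mice and 0.856, 0.931, 7.95 and 6.73 in SE mice. All EE CD4+ samples were above the SE CD8+ samples, and the other groups overlapped. The CD4+ minus CD8+ log2 fold change was 1.29 ± 0.32 (SE, limma adjusted p = 0.0064). In 8 of the 9 mice with both populations the CD4+ sample was higher, with 6 of 6 EE mice and 2 of 3 SE mice.

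Hist1h2ao gave 10.1, 9.65, 5.34, 6.68, 11.0 and 28.6 normalised molecules in EE CD4+ samples, and 7.21, 0.915, 7.31, 6.65 and 10.1 in SE CD4+ samples. In CD8+ samples it gave 9.30, 2.90, 0.940, 1.94, 3.16 and 2.58 in EE mice, and 0, 2.79, 1.77 and 2.88 in SE mice. Most CD4+ samples were above most CD8+ samples, with replicate 3 of the SE CD4+ group low and replicate 1 of the EE CD8+ group high. The log2 fold change was 1.44 ± 0.34 (SE, limma adjusted p = 0.0031), and again 8 of 9 mice were higher in CD4+ T cells.

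Both calls held without replicate 6 of the EE CD4+ group, with log2 fold changes of 1.30 for Hist1h2ao (limma adjusted p = 0.013) and 1.12 for Hist1h2ap (limma adjusted p = 0.027). Within EE mice alone the log2 fold changes were 1.54 and 1.64 (limma adjusted p = 0.014 and 0.0027). Within SE mice alone they were 1.35 and 0.94 (limma adjusted p = 0.36 and 0.59). With DESeq2 Hist1h2ap did not pass (adjusted p = 0.11).

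B-cell markers moved with the same contrast, at 13 to 277 molecules in CD4+ and 1 to 57 in CD8+ samples, and their part in the difference was not tested. Fewer cells that express a gene and less RNA per cell cannot be told apart in such pooled cells.

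Of the other H2A genes, Hist1h2ae had an unadjusted p under 0.05 only. It gave 10.1, 0, 3.21, 10.0, 15.5 and 23.1 in EE CD4+ samples and 0, 0, 2.74, 2.85 and 2.25 in SE CD4+ samples, and at most 4.65 in CD8+ samples. Its molecules lay mainly in EE CD4+ samples, although EE replicate 2 had none. The log2 fold change between CD4+ and CD8+ T cells was 1.33 ± 0.44 (SE, limma adjusted p = 0.068). With CD8+ group means of 1.48 and 0.461, it entered the test through its CD4+ samples. For this reason nothing is read from its passing within EE mice alone (log2 fold change 2.03, limma adjusted p = 0.027), without replicate 2 of the EE CD4+ group (limma adjusted p = 0.0073), replicate 1 or 3 of the SE CD4+ group (0.039 and 0.041), or replicate 1 or 6 of the EE CD8+ group (0.034 and 0.042).

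Hist2h2aa2 overlapped between all groups, with 15.6 to 32.1 in EE and 16.5 to 23.7 in SE CD4+ samples, and 8.59 to 25.1 and 7.71 to 28.9 in CD8+ samples. Its CD8+ values spread more widely than its CD4+ values. The log2 fold change was 0.50 ± 0.20 (SE, limma adjusted p = 0.18), with 8 of 9 mice higher in CD4+ T cells. Without replicate 2 of the SE CD8+ group it was 0.67 (limma adjusted p = 0.044).

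H2B genes were counted at low levels. Hist1h2bc ranged from 0 to 11.8 in CD4+ samples and from 0 to 3.87 in CD8+ samples, with a log2 fold change of 1.05 ± 0.45 (SE, limma adjusted p = 0.22; edgeR adjusted p = 0.039). It was present in 8 of 11 CD4+ samples, and in either environment both high and absent values occurred. Hist1h2be, whose locus overlaps that of another gene on the same strand, gave 0 to 8.55 and 0 to 5.58, with a log2 fold change of -0.19 ± 0.38 (SE, limma adjusted p = 0.88).

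The linker histone genes did not pass the test. Hist1h1c ranged from 1.90 to 19.2 in CD4+ and from 2.57 to 17.7 in CD8+ samples, and its log2 fold change was -0.08 ± 0.31 (SE, limma adjusted p = 0.94). Each of the 4 groups held both low and high samples. Hist1h1e, whose locus also overlaps another gene on the same strand, ranged from 0.950 to 12.0 and from 0.966 to 8.46, with a log2 fold change of 0.29 ± 0.35 (SE, limma adjusted p = 0.78).

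Among H4 genes, Hist1h4d ranged from 5.04 to 13.4 in CD4+ and from 1.94 to 12.1 in CD8+ samples, with a log2 fold change of 0.47 ± 0.28 (SE, limma adjusted p = 0.45). The populations overlapped over most of this range. Hist1h4m had a log2 fold change of 0.11 ± 0.39 (SE, limma adjusted p = 0.94). At an unadjusted p under 0.05, 5 of the 10 genes were higher in CD4+ T cells and none was lower (Hist1h2ao, Hist1h2ap, Hist1h2ae, Hist2h2aa2 and Hist1h2bc), against 14.8% of all genes tested, 7.41% of them higher. Hist1h2ae and Hist1h2bc had group means below 2 in CD8+ T cells (0.461 to 1.48) and entered the test through their CD4+ samples, so nothing is read from this count.

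**Figure D2:**
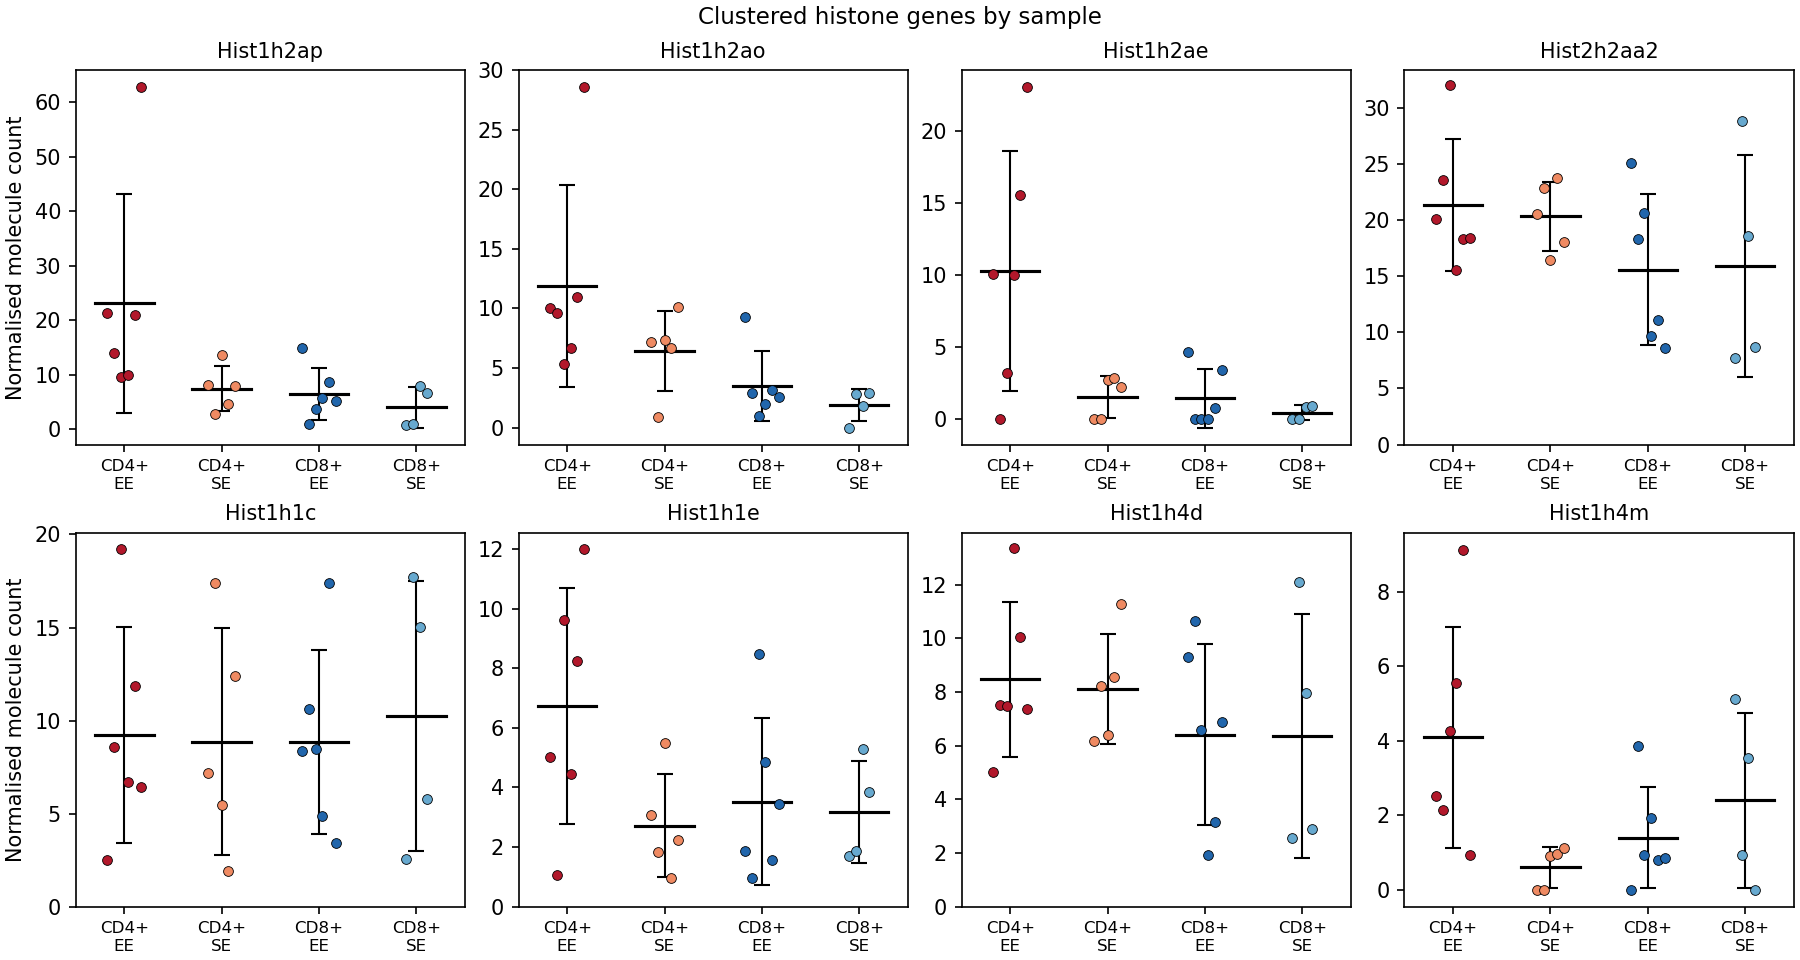
Normalised molecule counts of 8 clustered histone genes, 1 point for each sample, with the mean (line) and SD (bar) of each group. Hist1h2ap reached 62.7 and Hist1h2ao 28.6 in the same EE CD4+ sample, and Hist1h1c and Hist1h4d overlapped between all 4 groups.

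The second comparison was between EE and SE within CD4+ T cells. No histone gene passed the adjusted threshold. The fitted value was above 0 in all 11 genes tested, but in 7 of them without replicate 3 of the EE group, and with no minimum mean it was above 0 in 26 of 33 genes, with a median log2 fold change of 0.18. Over the 11 genes the median was 0.24, against 0.00 over all genes tested, and it was 0.43 with edgeR, 0.45 with DESeq2, 0.56 with the replicate block, and 0.23 to 0.59 on leaving out 1 sample at a time. It was lowest without EE replicate 3 and highest without SE replicate 1, and 0.54, 0.56, 0.37, 0.45 and 0.42 without EE replicate 1 or 2 or SE replicate 3, 5 or 6. The 11 genes were the 10 above and Hist1h4i, whose mean was above 2 in these samples. With limma, 0 of 11 passed an adjusted p of 0.05, edgeR and DESeq2 also called 0, and 0.0126% of all genes passed (1 of 7939, which is no histone gene). At an unadjusted p under 0.05, limma and DESeq2 gave 4 of the 11 and edgeR 5, each higher in EE. Of all genes tested with limma, 5.82% had such a p and 2.92% were higher in EE. Hist1h2ae and Hist1h4m had SE means below 2 (1.57 and 0.598) and entered the test through their EE samples, and Hist1h2ap and Hist1h2ao both count, so nothing is read from these counts, from the direction of all 11 or from their median.

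The 4 genes given by limma were 3 H2A genes, of which Hist1h2ap and Hist1h2ao count as 1 measurement, and 1 H4 gene. Hist1h2ap had an EE minus SE log2 fold change of 1.35 ± 0.35 (SE, limma adjusted p = 0.57), Hist1h2ae of 1.83 ± 0.58 (SE, limma adjusted p = 0.63) and Hist1h2ao of 0.80 ± 0.40 (SE, limma adjusted p = 0.83). Hist1h4m gave 2.52, 2.15, 4.28, 5.57, 9.14 and 0.922 in EE CD4+ samples and 0, 0, 0.914, 0.950 and 1.13 in SE CD4+ samples. In SE samples this was at most 1 molecule, and 5 of 6 EE samples were above all SE samples. The log2 fold change of Hist1h4m was 1.55 ± 0.56 (SE, limma adjusted p = 0.73). Because the values are log2(value + 1), a fold change of a gene with so few molecules is understated.

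Replicate 6 of the EE CD4+ group carried 68 molecules of Hist1h2ap, 31 of Hist1h2ao and 25 of Hist1h2ae, but 1 of Hist1h4m. Without this sample, the EE minus SE log2 fold change was 1.01 for Hist1h2ap (limma adjusted p = 0.76), 1.5 for Hist1h2ae (limma adjusted p = 0.77), 0.53 for Hist1h2ao (limma adjusted p = 0.89) and 1.79 for Hist1h4m (limma adjusted p = 0.72). The unadjusted p of Hist1h2ao was then 0.21. Without SE replicate 3, the lowest SE sample, the log2 fold change of Hist1h2ao was 0.37 (unadjusted p = 0.33, limma adjusted p = 0.93). The CD8+ sample of the same mouse had 6 molecules of Hist1h2ap and 3 of Hist1h2ao, within the range of the other CD8+ samples.

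For the remaining genes EE and SE CD4+ samples overlapped. The fitted log2 fold change was 0.96 ± 0.48 for Hist1h1e (SE, limma adjusted p = 0.83), and between 0.03 for Hist1h4d and 0.24 for Hist1h4i for the other 6 genes. Hist1h1e gave 1.07 to 12.0 in EE and 0.950 to 5.49 in SE samples.

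The third comparison was between EE and SE within CD8+ T cells. Of 8 genes tested with limma, 0 passed an adjusted p of 0.05 and 0 had an unadjusted p under 0.05, against 0.0% and 5.27% of the 7840 genes tested (3.11% higher in EE), and edgeR and DESeq2 also called 0. The fitted log2 fold change was above 0 in 4 of the 8 genes, with a median of 0.02. This median has no stable sign, as it was -0.21 without SE replicate 1, 0.31 without SE replicate 2 and 0.14 with the replicate block. The largest were 0.66 ± 0.50 for Hist1h2ap (SE, limma adjusted p = 0.96) and 0.62 ± 0.55 for Hist1h2ao (SE, limma adjusted p = 0.96), and they were 0.39 and 0.34 without replicate 1 of the EE CD8+ group. On leaving out 1 sample at a time they were 0.29 to 1.05 for Hist1h2ap and 0.17 to 0.83 for Hist1h2ao, lowest without SE replicate 1 in either case. Without SE replicate 2, Hist1h2ap was at 0.31, and without EE replicate 2 its unadjusted p was 0.041. The lowest was -0.32 ± 0.58 for Hist1h4c (SE, limma adjusted p = 0.99), an H4 gene whose mean was above 2 in CD8+ samples only.

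The difference between populations in their EE minus SE change was tested as an interaction. Of 10 genes, 0 passed an adjusted p of 0.05, with limma, edgeR and DESeq2 alike, and 0.0% of the 7938 genes did with limma. At an unadjusted p under 0.05 limma gave Hist1h4m, with a difference of 1.90 ± 0.78 on the log2 scale (SE, limma adjusted p = 0.98), where 4.95% of all genes had such a p and 2.39% in this direction. Its CD8+ values were 0 to 3.87 in EE and 0 to 5.14 in SE samples. A different response of CD4+ and CD8+ T cells was thus not shown for any of the histone genes tested.

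**Figure D3:**
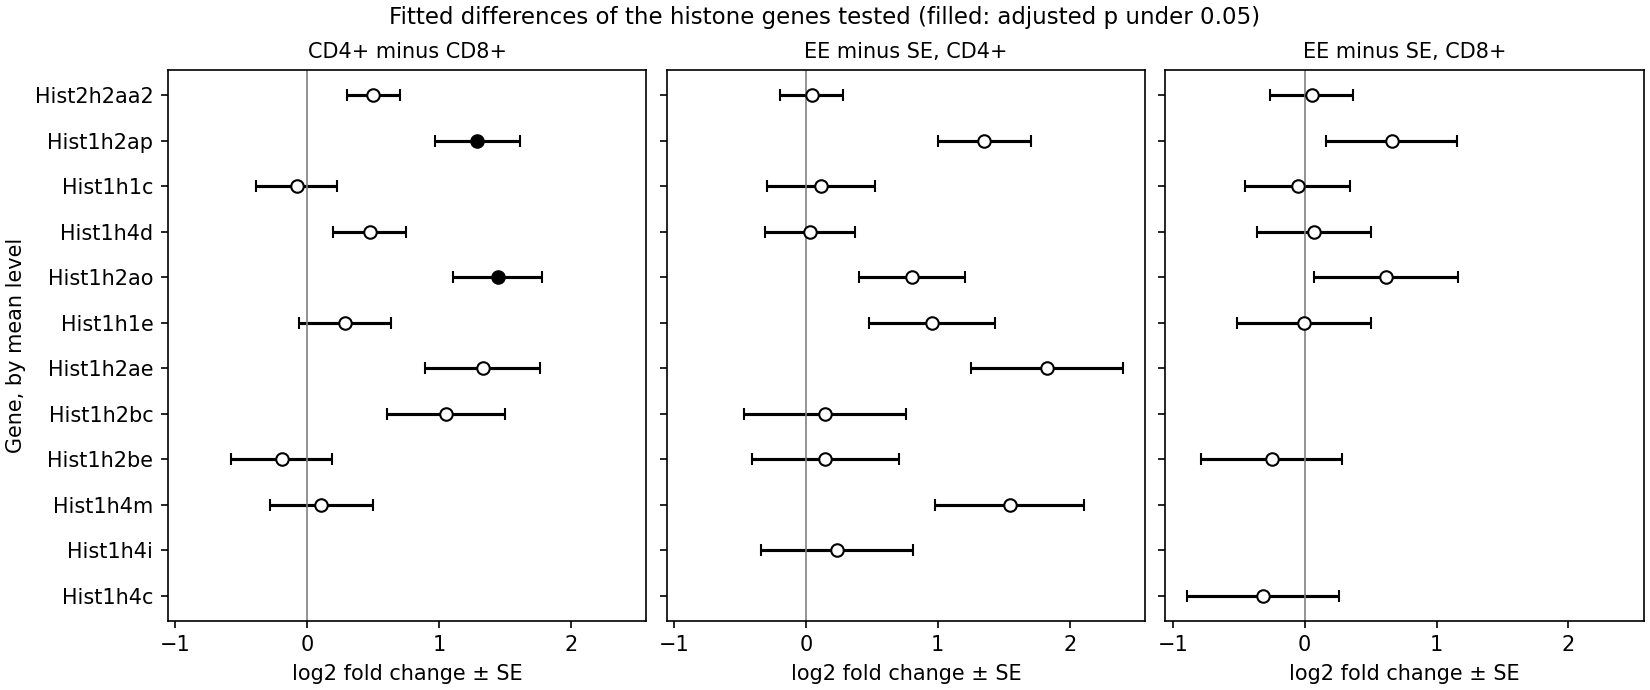
Fitted log2 fold changes with their standard errors of the histone genes tested, ordered by mean level, for CD4+ minus CD8+ T cells and for EE minus SE in each population; filled points have an adjusted p under 0.05 and genes below the minimum mean in a comparison have no point. Hist1h2ap and Hist1h2ao were called between populations (1.29 and 1.44), and none was called between environments.

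Co-variation was described within each population on values centred on the group means, for the 5 genes with a mean above 5, which make 10 pairs. All coefficients rest on 11 CD4+ or 10 CD8+ samples, whose genes share library and depth, and no test was run. Over all pairs of genes with a mean above 5, Pearson's r had a median of -0.00 in either population, and the 5th and 95th percentiles were -0.55 and 0.56 in CD4+ and -0.58 and 0.59 in CD8+ T cells.

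In CD4+ T cells the histone genes did not vary as 1 group. The median r over the 10 pairs was -0.29 and the highest was 0.96 (Spearman's rho 0.91), between Hist1h2ap and Hist1h2ao. It fell to 0.70 without EE replicate 6. As these genes share most 50-base stretches, this r does not compare independent measurements. Most of the 10 pairs hold Hist1h2ap or Hist1h2ao, so the median in either population counts what they share more than once. Over the pairs r was -0.39 to 0.96, and -0.47 to 0.71 without the 2 samples farthest from the median of the first gene. Nothing is read from the medians or from their difference between populations. Between Hist1h2ap and Hist2h2aa2, another H2A gene with 78 shared stretches, r was -0.37 (rho -0.42), and -0.59 to -0.19 when single samples were dropped. Between Hist1h2ap and the H1 gene Hist1h1c it was -0.30 (rho -0.43), and -0.44 to -0.13 in the same way. Hist2h2aa2 and Hist1h1c had an r of 0.51 (rho 0.28), which was 0.019 to 0.72 when single samples were dropped and -0.0023 without the 2 samples farthest from the median of Hist2h2aa2.

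In CD8+ T cells the median r was 0.44 and the highest was 0.85 (rho 0.78), between Hist2h2aa2 and Hist1h4d. It was 0.76 to 0.92 when each sample was left out in turn, and 0.73 without the 2 samples farthest from the median of Hist2h2aa2. In CD4+ T cells the same pair had an r of -0.34 (rho -0.18), and -0.45 to -0.056 when single samples were dropped. Without the 2 samples farthest from the median of Hist2h2aa2 it was -0.094. Hist1h2ap and Hist1h2ao had an r of 0.75 (rho 0.60) in CD8+ T cells, which was 0.30 without EE replicate 1. When the 2 samples farthest from the median of the first gene were left out, the median over pairs in CD8+ T cells was 0.088. Between the sums of H1, H2A, H2B and H4 genes the median r was 0.17 in CD4+ and 0.26 in CD8+ T cells.

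**Figure D4:**
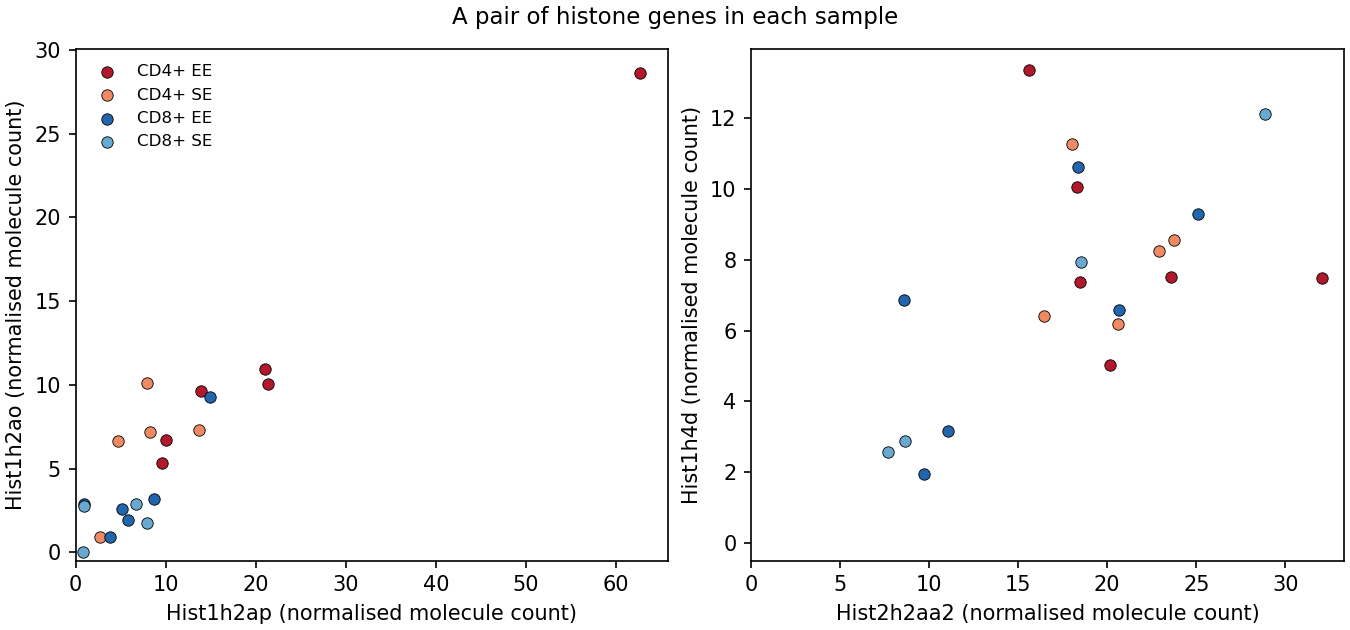
Normalised molecule counts of Hist1h2ap against Hist1h2ao (left) and of Hist2h2aa2 against Hist1h4d (right), 1 point for each sample, coloured by group. The left-hand point at 62.7 and 28.6 is replicate 6 of the EE CD4+ group. On the right r was 0.85 in CD8+ and -0.34 in CD4+ samples, on values centred by group. Without the 2 samples farthest from the median of Hist2h2aa2 it was 0.73 and -0.094.

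The spread between samples was also set beside that of all genes with a mean of 2 to 20 in the population. The measure was the ratio of variance to mean of the normalised values within groups. Genes were not matched by level within this range. In CD4+ samples this ratio was 14.5 for Hist1h2ap, 6.22 for Hist1h2ae, 5.16 for Hist1h2bc, 4.76 for Hist1h2ao and 3.86 for Hist1h1c, where the median of 6614 genes with a mean of 2 to 20 was 1.54 and the 95th percentile 3.37. Without EE replicate 6 it was 2.22 for Hist1h2ap and 1.15 for Hist1h2ao, but 4.3 for Hist1h2ae, 5.43 for Hist1h2bc and 4.09 for Hist1h1c. Hist1h4d (0.777) and Hist2h2aa2 (1.12, with a mean of 20.9) were below the median gene. Hist1h4i (1.62), Hist1h4m (2.01), Hist1h1e (2.04) and Hist1h2be (2.18) were below the 95th percentile. In CD8+ samples the ratio was 4.16 for Hist2h2aa2, 3.70 for Hist1h1c and 3.54 for Hist1h2ap, against a 95th percentile of 2.94 over 6532 genes. Below it were Hist1h4d (2.32), Hist1h2ao (2.18) and Hist1h1e (1.77). Hist1h2be (1.14) and Hist1h4c (1.10) were below the median of 1.32.

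Genes that act with the clustered histones were taken from lists fixed by name. Of the replication-independent histones, whose genes lie outside the clusters and are used throughout the cell cycle, 10 were tested between CD4+ and CD8+ T cells and 2 were higher in CD4+ T cells with limma, where 2.33% of all genes were. These were H1f0, a linker histone of cells that have stopped dividing, with a log2 fold change of 1.35 ± 0.41 (SE, limma adjusted p = 0.040), and H3f3b, one of the genes for H3.3, with 0.41 ± 0.11 (SE, limma adjusted p = 0.012). H1f0 had group means of 2.90 and 4.1 in CD4+ and of 0.467 and 0.682 in CD8+ T cells and entered the test through its CD4+ samples, so nothing is read from its call or from the count of 2. The median over the list was 0.00 and over all genes -0.01.

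Of the histone chaperones, which carry histones to DNA, 19 were tested and 1 was lower in CD4+ T cells, Npm1, with a log2 fold change of -0.25 ± 0.08 (SE, limma adjusted p = 0.045). DESeq2 called 0 of this list and edgeR 1. Over all genes 4.4% passed with limma, so 1 of 19 is near the background. Of the 13 factors for transcription, processing and decay of histone mRNA, 0 passed with limma, edgeR or DESeq2. At an unadjusted p under 0.05 with limma, 2 were lower in CD4+ T cells and none was higher. Of all genes, 14.8% had such a p in either direction, so this count is near the background. The smallest p there was that of Cpsf2, a subunit of the cleavage complex, with -0.79 ± 0.33 (SE, limma adjusted p = 0.20). Between EE and SE, and in the interaction, limma, edgeR and DESeq2 called 0 genes of these lists, with at most 2 genes of a list at an unadjusted p under 0.05 with limma, beside 4.95% to 5.82% of all genes. Cpsf2 had the smallest p among those higher in EE CD4+ T cells (log2 fold change 1.17 ± 0.50, SE, limma adjusted p = 0.82), and Atrx, a chaperone partner of H3.3, among those lower (-0.47 ± 0.21, SE, limma adjusted p = 0.82).

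No cell-cycle gene passed in any comparison with limma, edgeR or DESeq2. At an unadjusted p under 0.05 limma gave 2 higher and 3 lower in CD4+ than in CD8+ T cells, 0 between EE and SE in CD4+ T cells and 2 lower in EE in CD8+ T cells, beside 14.8%, 5.82% and 5.27% of all genes in either direction. In the interaction it gave 2 higher and 1 lower, beside 4.95% of all genes, among them Ccne1 (2.03 ± 0.80, SE, limma adjusted p = 0.98) and Mcm7 (-1.04 ± 0.50, SE, limma adjusted p = 0.99). Of 34 listed, 31 were in the table, and 12 or 13 had a mean high enough to be tested. Their median EE minus SE log2 fold change was 0.26 in CD4+ and -0.21 in CD8+ T cells, beside 0.00 and -0.01 over all genes. The smallest p between EE and SE was that of Ccne1, a cyclin of the entry into S phase, in CD8+ T cells (-1.71 ± 0.55, SE, limma adjusted p = 0.68). Summed over the 31 genes, CD4+ samples gave 84.7 to 135 in EE and 76.9 to 103 in SE mice. CD8+ samples gave 78.3 to 113 and 109 to 119, with 5 of 6 EE samples below all SE samples.

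The highest cell-cycle sum of all 21 samples, 135, was that of replicate 6 of the EE CD4+ group, the sample with the most H2A molecules. Mki67, a marker of dividing cells that was chosen after its values were seen, had 11 molecules in this sample and at most 4 in any other CD4+ sample. Ccna2, a cyclin of S phase chosen in the same way, had 5 molecules in this sample and at most 1 in the others. Over the whole list, 6 of the 31 genes had their highest CD4+ value in this sample and 1 to 5 in each of the others, where 7.63% of all 7939 genes were highest in it. Top2a, needed to untangle copied DNA, had 4 molecules there but 5 in EE replicate 1, and Rrm2, a subunit of the enzyme that makes DNA building blocks, had 4 there but 6 in EE replicate 5. Pcna, the clamp of the DNA polymerase, was at 14.8 there and at 10.7 to 27.0 in the other CD4+ samples. The part of dividing cells in the histone values was not tested.

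**Figure D5:**
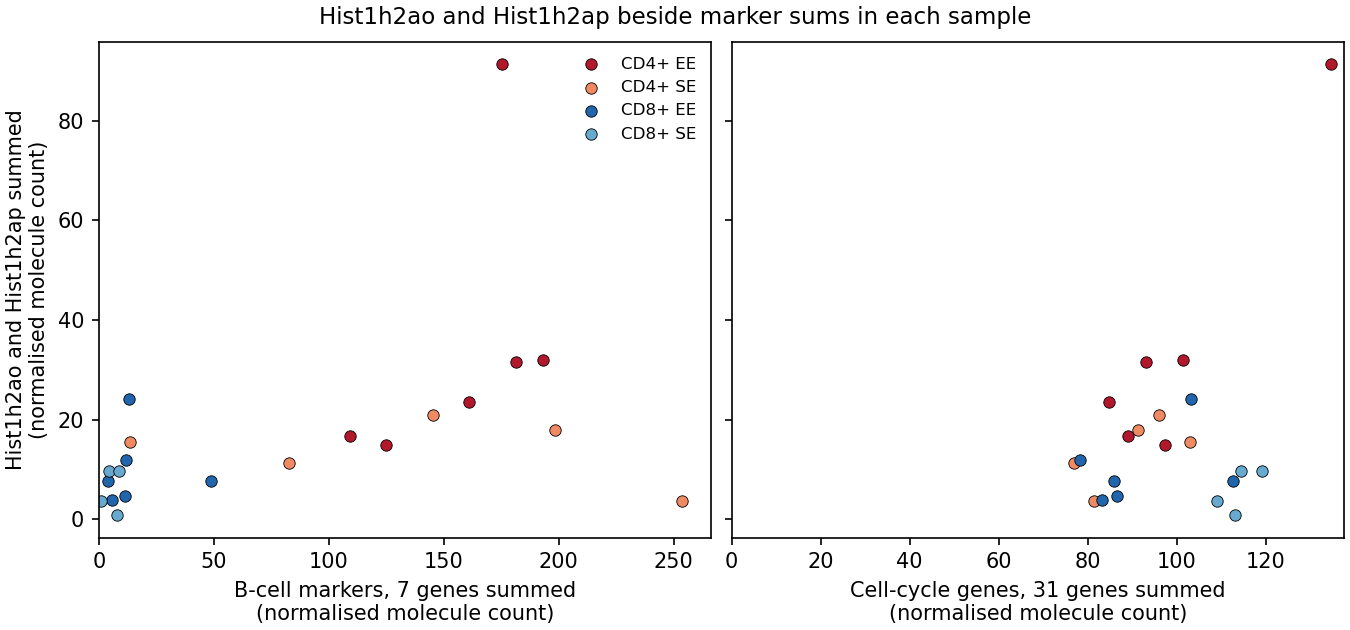
Sum of Hist1h2ao and Hist1h2ap in each sample against the summed B-cell markers (left) and the summed cell-cycle genes (right), all in normalised molecule counts and coloured by group. The EE CD4+ sample at 91.3 has the highest cell-cycle sum (135), while its B-cell sum (175) is within the range of the other CD4+ samples (13.4 to 254).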

How the data were processed

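RNA of T cells sorted from spleen was copied with a template-switching primer that carries a molecular tag, and sequenced on an Ion Proton. Per the labels and the study's methods, the authors trimmed reads with cutadapt, aligned them to mm10 with STAR 2.4.0a, counted molecular tags per gene of an Ensembl annotation of GRCm38, dropped genes of low abundance and divided the counts by DESeq2 size factors. The deposited values are thus a normalised signal. Whole molecule counts were recovered from the steps of the values for every column (100% of values whole within 0.0001). The labels' entry for the number of cells runs on with the sample number, separates EE from SE samples and was not used.

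Groups were taken from the labels. Genes with a mean above 2 in the samples of a fit were tested on log2(value + 1) with limma 3.58.1 (trend), with Benjamini-Hochberg adjustment over all genes tested and a threshold of 0.05. R 4.3.3 was used. All 21 samples entered the comparison of populations and the interaction, and the samples of 1 population the comparison of environments. edgeR 4.0.16 and DESeq2 1.42.0 were run on the recovered molecules as alternatives. Other alternatives were a pseudocount of 0.5, no minimum, a minimum mean of 10, an equal total per sample, a replicate block and leaving out each sample. The model code was tested on simulated data.

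CD4+ and CD8+ samples of 1 mouse are paired by the labels. Their deviations from the group means had a mean correlation of 0.014 over 9 mice (-0.015 to 0.035), and -0.0027 between different mice. As the mice of an environment shared a cage, p-values measure the spread between mice of 1 cage.

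Named genes were all those with a mean above 2, those next to this limit, Hist1h2ae and Hist1h4m, and, in each list of related genes, those past the threshold and some of those with the smallest p. These genes and lists were chosen with earlier results of these data known. Stem-loops and transcripts were read from GENCODE M21 and promoters from RefSeq. Depth limits precision: a gene with few molecules could differ between groups without being called.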

Additional observations from a re-analysis of the deposited data

Results flagged for a closer look

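In each group of 4 to 6 samples, the highest and the lowest value were compared with the rest by Dixon's criterion. Of 164 groups tested, 11 were flagged, where 8.2 would be flagged by chance. Replicate 6 of the EE CD4+ group stood above the other 5 samples for Hist1h2ap (62.7 against 9.62 to 21.4 normalised molecules), Hist1h2ao (28.6 against 5.34 to 11.0), their sum (91.3 against 15.0 to 32.0) and the H2A sum (141 against 47.9 to 73.1). These 4 values rest on the same molecules in large part. Replicate 1 of the EE CD8+ group stood above its group for Hist1h2ao (9.30 against 0.940 to 3.16) and the H2A sum (61.4 against 19.4 to 29.1), and the CD4+ sample of the same mouse had an H2A sum of 64.2, within its group. Replicate 3 of the SE CD4+ group was low for the H2A sum (30.2 against 40.2 to 42.1).

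Hist1h2be was high in replicate 3 of the EE CD4+ group (8.55 against 0.914 to 2.52). Outside the clusters, Cpsf3 was high in replicate 2 of the EE CD8+ group (15.5 against 7.91 to 10.3) and H3f3b in replicate 1 of the SE CD4+ group (149 against 97.8 to 109). H1f0 was at 0 in replicate 5 of the SE CD4+ group, where the others had 4.50 to 5.49.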

How the results depend on the processing

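Between CD4+ and CD8+ T cells, 2 genes were called under most alternatives. The count was 1 with DESeq2 (Hist1h2ao), 1 with a minimum mean of 10 (Hist1h2ap, since Hist1h2ao has a lower mean), 0 within SE samples alone, and 2 to 3 on leaving out 1 sample at a time. With the replicate block on the mouse it stayed at 2, and no call between populations or environments changed with a block. The numbers of EE and SE mice do not pair animals, since they name different mice (mean correlation of deviations 0.0083 in CD4+ and 0.0052 in CD8+ samples), and the blocked counts between environments and in the interaction were 0. Between environments and in the interaction the count was 0 under every alternative run. In CD4+ samples r of Hist1h2ap and Hist1h2ao was 0.704 to 0.975 on leaving out 1 sample at a time, and 0.707 without the 2 samples farthest from the median of Hist1h2ap. In CD8+ samples it was 0.302 to 0.838 and -0.0308, and the median over pairs was 0.0882 without the 2 farthest samples. The cause of these changes was not tested, apart from those that follow from fewer samples or genes. Of the values for single genes, 266 kept their direction and side of the threshold, 8 passed it (6 of Hist1h2ae, Hist2h2aa2 without replicate 2 of the SE CD8+ group, and Hist1h2bc with edgeR), 3 no longer passed it and none reversed.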
